A study of Mus musculus with 3 samples.

Results

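A set of 10 genes of the germ line and of the maternal contribution to the early embryo were followed through the conversion of mouse embryonic stem (ES) cells into early hepatic cells. The set is Khdc3, Ooep, Gtsf1, Mael, Morc1, Dppa3, Dppa5a, Tcl1, Dazl and Ddx4, 10 of the 28577 gene names with a value on all arrays, and all 10 were found through the array's own gene names or accessions (Khdc3 under an older clone name). The genes were picked with their differences between these same arrays in view, so their differences are a description, with no test. RNA of the ES cell line E14.1 was hybridised to 1 one-colour array for each of 3 days. The day 0 cells were undifferentiated ES cells in serum-free N2 and B27 medium with 10 ng/ml BMP4 and 1000 U/ml LIF on gelatin. For day 5, labelled definitive endoderm, the cells grew on collagen IV with 30 ng/ml activin A, without BMP4 or LIF. For day 7, labelled early hepatic cells, 30 ng/ml BMP4 and 10 ng/ml bFGF were added to the activin A for the last 2 days. The study set these days around Foxa2, a transcription factor of the endoderm and liver. All 3 groups come from 1 cell line and none is a germ cell or an embryo. With 1 array per day there was no biological replicate, so no p-value or standard error could be given.

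Germ cells keep a set of genes that most somatic cells silence, among them those that guard the genome against mobile elements and those that store and translate maternal RNA. The oocyte also loads the egg with proteins that the embryo needs before its own genome is read, and the genes for these are called maternal-effect genes. Mouse ES cells kept with LIF resemble the early epiblast, from which germ cells later arise, and are known to transcribe several genes of both kinds. In somatic lineages many promoters of germ line genes are closed by DNA methylation at CpG sites and by a variant Polycomb complex that holds E2F6 and the E-box factors MGA and MAX.

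The promoters of the 10 genes differed in their number of CpG sites and in these motifs. Promoter sequence was at hand for 7 of the 10 genes (RefSeq, assembly GRCm38.p6, 250 bases before to 50 bases after the gene's start), and 3 are shown because they span the range, with the 250 upstream bases printed 5′ to 3′ along the gene. Capitals mark CACGTG, the E-box core, and TCCCGC or its reverse complement GCGGGA, a core of E2F sites. The windows are chr9:73102148-73102397 on the plus strand for Khdc3, chr1:166238745-166238994 on the minus strand for Mael and chr13:112652311-112652560 on the minus strand for Ddx4.

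Khdc3: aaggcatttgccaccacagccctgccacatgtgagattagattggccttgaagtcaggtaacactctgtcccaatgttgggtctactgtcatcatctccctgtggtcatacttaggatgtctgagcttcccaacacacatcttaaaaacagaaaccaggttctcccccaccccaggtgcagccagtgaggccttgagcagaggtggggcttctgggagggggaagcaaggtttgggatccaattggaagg
Mael: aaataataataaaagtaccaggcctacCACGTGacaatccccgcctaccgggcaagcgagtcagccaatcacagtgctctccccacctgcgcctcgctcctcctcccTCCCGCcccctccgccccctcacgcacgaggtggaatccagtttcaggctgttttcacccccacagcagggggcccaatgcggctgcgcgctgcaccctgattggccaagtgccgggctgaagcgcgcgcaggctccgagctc
Ddx4: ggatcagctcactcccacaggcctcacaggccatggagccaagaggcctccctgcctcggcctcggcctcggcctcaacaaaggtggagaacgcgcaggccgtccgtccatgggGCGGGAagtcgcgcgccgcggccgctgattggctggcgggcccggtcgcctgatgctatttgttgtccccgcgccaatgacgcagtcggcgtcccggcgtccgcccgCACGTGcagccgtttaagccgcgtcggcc

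The whole 300-base window of Khdc3 held 0 CpG sites, as did 5.43% of the 32851 promoter windows in the table, whose median was 7. Tcl1 had 11 CpG sites, Gtsf1 13, Ooep 15, Mael 24, Dazl 28 and Ddx4 38. As many as Ddx4 or more were found in 5.0% of all windows, as many as Dazl or more in 14.2%, and as many as Mael or more in 20%. An E-box core stood 223 bases before the start of Mael and 29 bases before that of Ddx4. An E2F core stood 143 and 136 bases before the same starts, and Mael had another 12 bases after its start. The other 5 windows, that of Khdc3 included, held neither motif. Searched on both strands, the E-box core was present in 7.2% of all windows, the E2F core in 20% and both in 1.99%. These are matches of letters only, and binding was not measured.

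The array measures each transcript through probes of 60 bases. For Morc1 the probe that carries the result spans an exon junction, since its 60 bases lie within chr16:48624427-48627055 (mm9, plus strand), and for Dppa5a the probe at chr9:78215574-78215633 (mm9, minus strand) served as a check on the main one. Both are shown here because they bear on how far single-probe values can be read, with no base singled out.

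Morc1: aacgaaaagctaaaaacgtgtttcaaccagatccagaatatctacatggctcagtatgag
Dppa5a: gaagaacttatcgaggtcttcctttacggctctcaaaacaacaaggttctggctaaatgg

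Each array held 43379 gene spots of 41174 probes, and between 70.9% and 71.7% of the spots were well above background. The 75th percentile of the signal lay at 1564 intensity units for ES cells, 2051 for day 5 and 2053 for day 7, and each log2 level below is relative to its own array's 75th percentile. A gene was called lower or higher at a difference of 1 on the log2 scale (2-fold) with its probe well above background on the brighter array. Where a probe was not well above background on the dimmer array, the fold is a lower bound and is written as at least N-fold. Errors given with a signal are those of the scanner software for 1 spot and cover the reading of that spot only. Probes printed as 10 spots had a median spot SD between 0.076 and 0.08 (log2) on the 3 arrays. Among genes measured above background on each of the 2 arrays compared, the median shift was -0.13 from day 0 to day 5, -0.2 from day 0 to day 7 and -0.09 from day 5 to day 7.

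The labelled cell types were checked against their markers. Pou5f1, Nanog, Sox2, Zfp42 and Esrrb had log2 levels between 2.85 and 6.65 on day 0, and all 5 of 5 were lower on day 5 and on day 7. Of the definitive endoderm markers, 5 of 5 were higher on day 5 than on day 0. Of the early hepatic markers, Afp, Ttr, Apoa1 and Hnf4a were higher on day 7 than on day 0, while Alb, the albumin gene of hepatocytes, lacked a signal well above background on both arrays.

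Every one of the 10 genes was lower in definitive endoderm than in ES cells. On day 5 against day 0, 10 of 10 were at least 2-fold lower and 0 were higher, beside 16.1% of the 21653 tested gene names lower and 16.4% higher. Their differences lay between -8.05 and -2.61, with a median of -5.17 against -0.11 for all tested names. On day 7 against day 0, 10 of 10 were again lower and 0 higher, beside 19.1% lower and 16.2% higher of all names. Those differences lay between -11.69 and -2.52 with a median of -8.04 against -0.19 for all names, and 2 of them are bounds. Both comparisons use the same day 0 array, and the genes were chosen from them, so nothing is read from these counts. In RNA of whole cultures, fewer cells of a kind and less RNA per cell cannot be told apart.

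**Figure D1:**
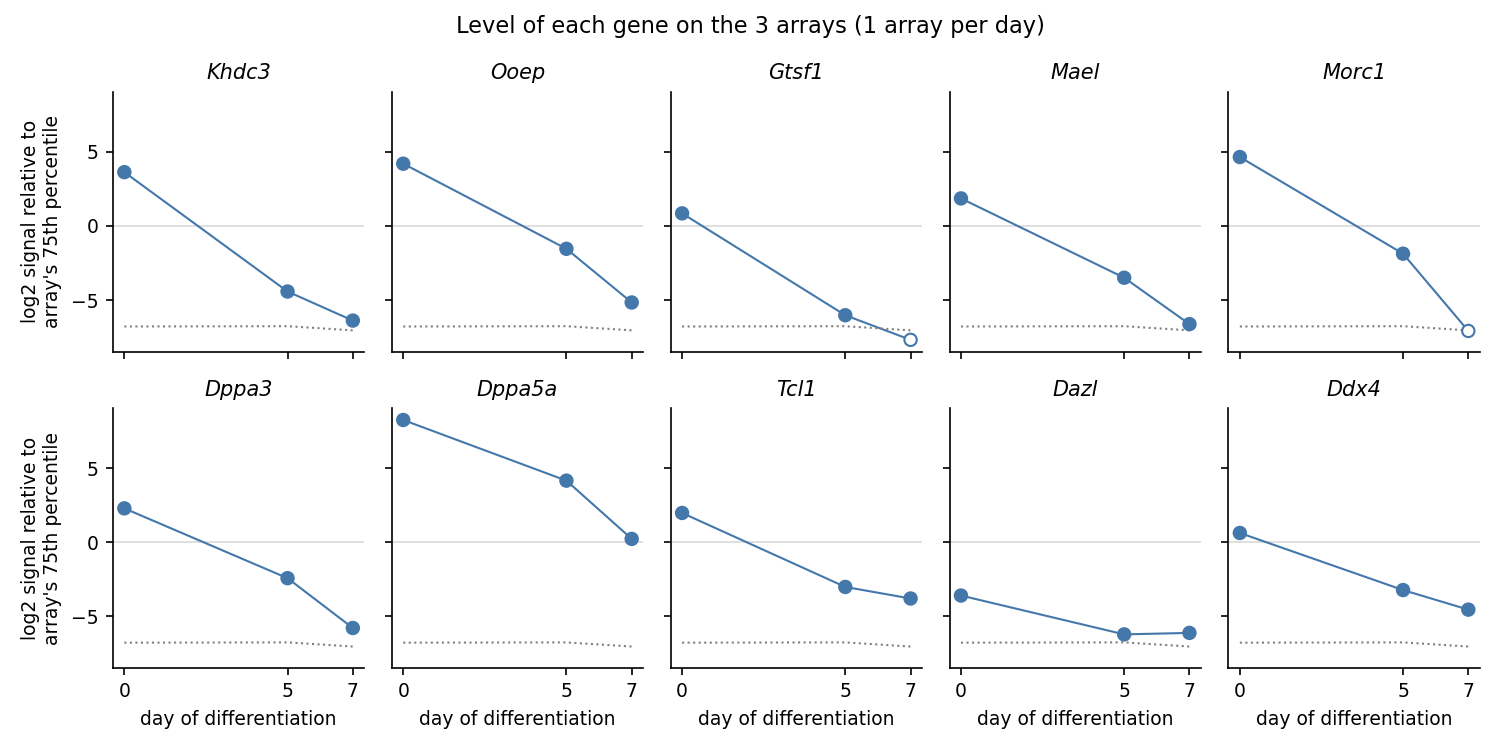
Log2 signal of each gene's probe relative to the array's 75th percentile (vertical axis) against the day of differentiation (horizontal axis), 1 array per day. Filled points were well above background, open points were not, and the dotted line is the lowest value of a probe well above background, which Gtsf1 and Morc1 reach on day 7.

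Khdc3 and Ooep encode KH-domain proteins of the subcortical maternal complex, a structure under the egg's surface that embryos need for the first cleavages, and Khdc3 is also known to protect genome stability in ES cells. The Khdc3 probe (chr9:72952157-72952216, mm9) gave 19351 ± 1935 intensity units on day 0, 96.0 ± 10.5 on day 5 and 24.6 ± 4.16 on day 7. Day 0 thus stood far above both later days, while all 3 readings were still well above background. After scaling, the difference was -8.05 ± 0.21 on day 5 (264-fold lower) and -10.01 ± 0.28 on day 7 (1034-fold lower), where ± is the spot errors combined. Among the 18844 gene names measured on both arrays, the day 5 difference ranked 2 from the lowest.

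Ooep gave 28809 ± 2881 units on day 0, 706 ± 70.8 on day 5 and 57.4 ± 6.68 on day 7. Its signal fell at each step, as did that of Khdc3. The difference of Ooep was -5.74 ± 0.2 on day 5 (53.5-fold lower) and -9.36 ± 0.22 on day 7 (659-fold lower). It ranked 35 from the lowest on day 5 and 3 among the 18882 names measured on both arrays on day 7. Khdc3 had reached 80.4% of its day 7 log2 difference on day 5, and Ooep 61.3%.

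Gtsf1, Mael, Morc1 and Ddx4 belong to the defence of germ cells against mobile elements. Gtsf1 encodes a small zinc finger protein needed for silencing guided by piRNAs, the small RNAs that PIWI proteins carry. Its probe gave 2827 ± 283 units on day 0, 31.7 ± 5.04 on day 5 and 10.0 ± 3.37 on day 7, a reading not well above background. Gtsf1 was 117-fold lower on day 5 (-6.87 ± 0.27) and at least 238-fold lower on day 7. Only the day 0 array therefore showed it clearly, with the day 5 reading close to the limit of detection.

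Morc1, an ATPase that silences transposons in male germ cells, gave 39327 ± 3933 units on day 0, 562 ± 56.4 on day 5 and 15.1 ± 3.76 on day 7, a reading not well above background. Morc1 was 91.8-fold lower on day 5 (-6.52 ± 0.2) and at least 3305-fold lower on day 7 (a bound of -11.69). Of the 10 genes it had the largest day 7 difference, and between day 5 and day 7 alone it was at least 36.0-fold lower. The day 7 difference was -9.27 with the refitted normexp correction, a setting added after the data were seen. That correction takes background from each spot's surroundings and then adds 50 units to every corrected signal. With the median over both Morc1 probes the day 7 difference was -5.9, and the other probe was not well above background on any array.

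Mael, named after the maelstrom gene of the fruit fly, encodes an HMG-box protein that represses transposons in the germ line. It gave 5687 ± 569 units on day 0, 182 ± 18.6 on day 5 and 20.9 ± 3.88 on day 7. Its signal dropped in both intervals and stayed just within the range called well above background. The difference was -5.36 ± 0.21 on day 5 (41.0-fold lower) and -8.48 ± 0.3 on day 7 (357-fold lower).

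Ddx4 is the mouse vasa homologue, a DEAD-box RNA helicase of the germ granule. Its probe read 2407 ± 241 units on day 0, 219 ± 22.3 on day 5 and 87.5 ± 9.46 on day 7. All 3 readings were well above background. The difference was -3.85 ± 0.21 on day 5 (14.4-fold lower) and -5.17 ± 0.21 on day 7 (36.1-fold lower), so that Ddx4 changed less than the other 3 genes of this group on both days.

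Dppa3 and Dppa5a are genes of pluripotent and germ cells. Dppa3, also known as Stella, encodes a maternal protein that shields the egg's genome from loss of DNA methylation, and it is used as a marker of primordial germ cells and of the naive ES cell state. Its probe (chr6:122580134-122580193, mm9) gave 7569 ± 757 units on day 0, 380 ± 38.3 on day 5 and 37.0 ± 5.24 on day 7. Its difference was -4.71 ± 0.2 on day 5 (26.1-fold lower) and -8.07 ± 0.25 on day 7 (269-fold lower). The decline was spread over both intervals, with 58.3% of the log2 difference reached on day 5.

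Dppa5a encodes a KH-domain RNA-binding protein. Its main probe (chr9:78214902-78214961, mm9) gave 472330 ± 47233 units on day 0, 36393 ± 3639 on day 5 and 2391 ± 239 on day 7. On day 7 it still stood at 0.22 on the log2 scale, slightly above the 75th percentile of its array, although 259-fold lower than on day 0 (-8.02 ± 0.2). On day 5 it was 17.0-fold lower (-4.09 ± 0.2). Ooep and Dppa5a lie 10.9 kb apart on chromosome 9, and Khdc3 lies 5263 kb from Dppa5a on the same chromosome (probe positions, mm9). All 3 of these KH-domain genes were lower than in ES cells on both days.

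Tcl1 encodes a co-activator of the kinase AKT that is known to support ES cell proliferation and the cleavage-stage embryo. It gave 6108 ± 611 units on day 0, 252 ± 25.5 on day 5 and 148 ± 15.2 on day 7. Most of the decline was present on day 5, at 86.6% of the day 7 log2 difference. Tcl1 was 31.8-fold lower on day 5 (-4.99 ± 0.21) and 54.2-fold lower on day 7 (-5.76 ± 0.21).

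Dazl encodes an RNA-binding protein that controls translation in germ cells. It had a low signal already in ES cells, at 129 ± 13.2 units on day 0, against 27.6 ± 4.94 on day 5 and 29.5 ± 4.48 on day 7. The later days overlapped within their spot errors. Dazl was 6.12-fold lower on day 5 (-2.61 ± 0.3) and 5.72-fold lower on day 7 (-2.52 ± 0.26), the smallest differences of the 10 genes on both days at the probe used. With the median over its 2 probes the day 5 difference was -3.92, further from 0 than that of Ddx4.

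**Figure D2:**
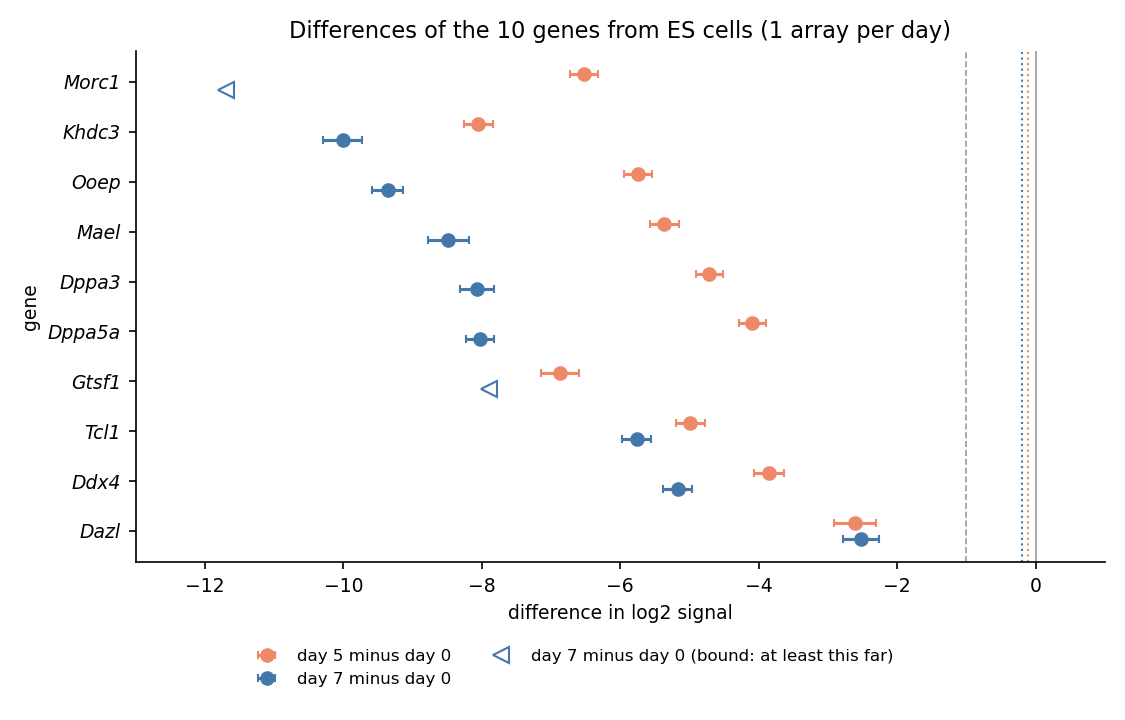
Difference in log2 signal from ES cells (horizontal axis) for each of the 10 genes on day 5 and day 7. Bars are the scanner software's spot errors combined, open triangles are bounds, dotted lines are the medians of all tested names (-0.11 on day 5 and -0.19 on day 7) and the dashed line is the 2-fold limit, which all points lie beyond.

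The comparison of early hepatic cells with definitive endoderm does not involve the day 0 array, but it shares an array with each of the others and its values were known when the genes were chosen. Lower on day 7 than on day 5 were 8 of the 10 genes, and 0 were higher, beside 8.38% of all tested names lower and 5.97% higher. The median of the 10 was -2.54, against -0.06 over all tested names. Ooep was 12.3-fold lower, Dppa5a 15.2-fold, Dppa3 10.3-fold and Mael 8.71-fold, and Morc1 at least 36.0-fold. Khdc3 was 3.91-fold lower, Ddx4 2.5-fold and Gtsf1 at least 2.03-fold.

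Tcl1 (-0.77 ± 0.21) and Dazl (0.1 ± 0.34) did not pass the 2-fold limit between day 5 and day 7. The calls of Khdc3, Gtsf1 and Ddx4 in this interval depend on the processing. With the refitted normexp correction and its added 50 units, their differences were -0.89, -0.49 and -0.91. Under it 5 genes (Ooep, Dppa5a, Dppa3, Mael and Morc1) remained lower. Gtsf1 also missed the limit with median scaling (-0.87), quantile normalization (-0.8), the authors' deposited table (-0.8) and the median over its probes (-0.56). With the normexp model fitted on all spots, 1 gene was lower and 2 were higher.

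Dppa5a, Gtsf1, Morc1 and Dazl were each measured by 2 probes. Both Dppa5a probes showed the same course, with 103069 ± 10307 units on day 0, 5711 ± 571 on day 5 and 332 ± 33.4 on day 7 at the second one, and differences of -4.56 on day 5 and -8.67 on day 7. The second Gtsf1 probe gave 1467 ± 147 units on day 0 and did not rise well above background on the later arrays, at least 102-fold lower on day 5 and at least 123-fold lower on day 7. For Morc1 the second probe, which the files assign to a separate cDNA clone, was not well above background on any of the 3 arrays and so gave no value.

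The 2 probes of Dazl disagreed on day 5, and with it on the step from day 5 to day 7. Their day 7 differences from day 0 were close (-2.52 at the main probe and -2.63 at the second). The second probe (chr17:50418923-50418982, mm9) gave 271 ± 27.2 units on day 0, 9.44 ± 3.97 on day 5 (not well above background) and 57.4 ± 6.57 on day 7. It was at least 18.8-fold lower on day 5 and 6.19-fold lower on day 7 than on day 0, so that both probes put both later days below ES cells. Set against day 5, day 7 was at least 3.04-fold higher at this probe and 1.07-fold higher at the main one. Whether Dazl changed between day 5 and day 7 is therefore not settled by these arrays.

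**Figure D3:**
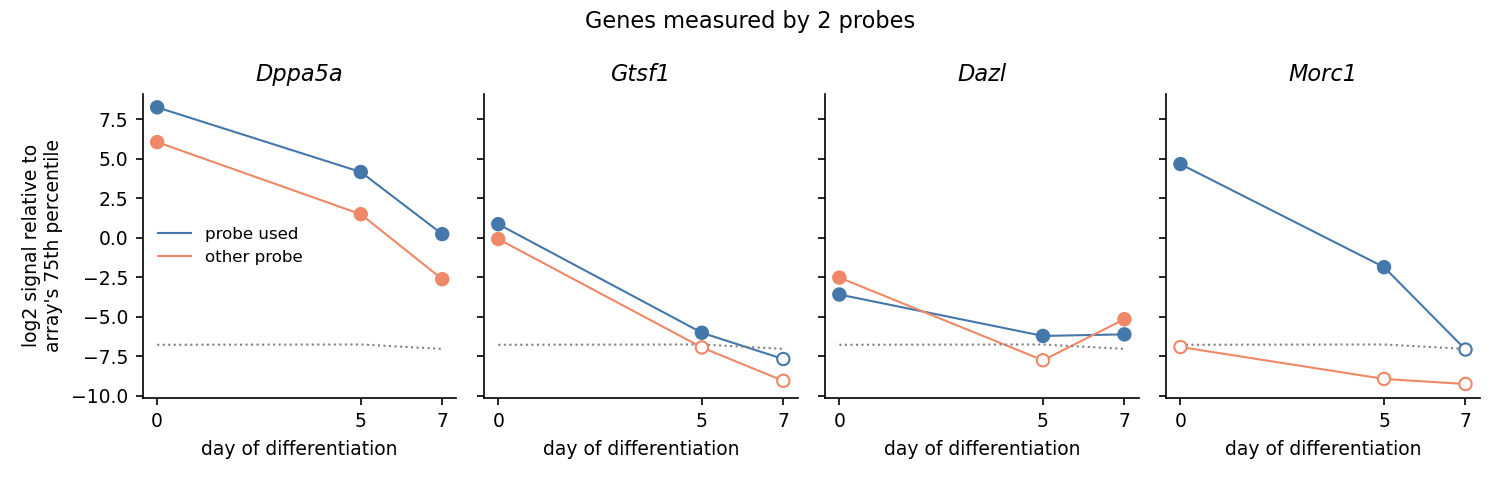
Log2 signal relative to the array's 75th percentile (vertical axis) against day (horizontal axis) for both probes of the 4 genes with 2 probes, open points being not well above background and the dotted line the lowest value that is. The courses run together for Dppa5a and Gtsf1 and part for Dazl on day 5, where its other probe is not well above background. The levels of different probes cannot be set against each other.

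The genes were next set beside fixed lists of genes with the same roles. Each list count stands beside the shares over all tested names, 16.1% lower and 16.4% higher on day 5, and 19.1% and 16.2% on day 7. Of the subcortical maternal complex, 7 of 8 genes could be tested and 4 were lower on both days, with 0 higher. Beside Khdc3 and Ooep these were Padi6 (-2.86 on day 5 and -3.11 on day 7), an egg protein of the deiminase family, and Nlrp4f (at least 42.9-fold and at least 51.8-fold lower). Tle6, Nlrp2 and Zbed3 did not pass the limit on either day. Nlrp5, a core subunit in the egg, was not well above background on any array.

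Of the piRNA and transposon silencing list, 20 genes were tested, and 14 were lower and 3 higher on day 5, 16 lower and 2 higher on day 7. Leaving out the 4 genes described above, 10 of 16 were lower and 3 higher on day 5 (median -2.42), and 12 lower and 2 higher on day 7 (median -2.7). Dnmt3l, the co-factor of the methyltransferases that mark transposons in male germ cells, was 58.4-fold lower on day 5 and 328-fold lower on day 7. Tex19.1, Tdrd12 and Rnf17 were 18.8-fold, 17.5-fold and 34.1-fold lower on day 5. The Tudor-domain genes Tdrd5 (1.11 on day 5 and 3.26 on day 7) and Tdrd7 (3.35 and 2.88) were higher. The day 5 call of Tdrd5 was lost with median scaling (1.0 after rounding) and with normexp fitted on all spots (0.06).

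Of 24 tested meiosis and germ line genes, 20 were lower on each day, with 1 higher on day 5 and 0 on day 7, and the median was -2.33 on day 5 and -3.11 on day 7. Syce1, a component of the synaptonemal complex that joins paired chromosomes, was 61.0-fold lower on day 5 and at least 592-fold lower on day 7. Tex14 (-5.54 and -7.55), Smc1b (-4.59 and -6.87) and Hormad2 (-3.72 and -6.7) followed. Smc1b is the meiotic cohesin subunit, and Hormad2 coats unpaired chromosome axes. The 1 gene that was higher on day 5 was Brdt, a bromodomain gene of the testis, at 1.04, which fell below the limit with median scaling (0.93).

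Genes of the oocyte moved less evenly. Of 17 with a probe, 5 (Zp2, Bmp15, Nobox, Oosp1 and Btg4) were not well above background on any array, and of the 12 tested 6 were lower and 1 higher on day 5, and 6 lower and 2 higher on day 7. Zp3, which encodes a protein of the egg coat, was 30.7-fold lower on day 5 and 65.9-fold lower on day 7. Nlrp14 was 31.1-fold lower on day 5 and at least 68.9-fold lower on day 7. Zar1, a maternal RNA-binding protein, was within 2-fold on day 5 (-0.61) and 7.18-fold higher on day 7. The gene higher on both days was Npm2 (1.06 and 1.04). Its day 5 call was lost with median scaling (0.95), quantile normalization (0.97) and the refitted normexp correction (0.81), which also removed the day 7 call (0.8).

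Among genes of germ cell specification, 7 of 13 were lower on both days, of which 3 were Dppa3, Dazl and Ddx4. Of the other 10, Tfap2c (-2.45 on day 5 and -3.93 on day 7), Dnd1 (-2.53 and -3.13), Ifitm1 (-4.04 and -2.71) and Ifitm3 (-2.45 and -2.44) were lower on both days. Prdm1, which directs epiblast cells to the germ cell fate and is also a gene of the endoderm, was 3.0 higher on day 5 and -0.24 on day 7 (log2). Kit was higher on day 5 (1.53) and at 0.00 on day 7.

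In the Dppa family, Dppa2 (-4.13 and -4.64) and Dppa4 (-4.72 and -7.82) were lower with Dppa3 and Dppa5a on both days, 4 of 4 tested, and Dppa1 was not well above background. In the Tcl1 family only Tcl1 passed the limit, 1 of 7. The other 6 genes had a median of -0.29 on day 5 and -0.44 on day 7. Their day 0 log2 levels lay between -6.54 (Tcl1b1) and -2.76 (Tcl1b3), with Tcl1 at 1.97. The lowest level well above background on that array was -6.78. Tcl1b1 was clearly detected on day 7 only. Its day 5 value of 0.0, part of the median, is therefore no measured difference, and its day 7 value (0.02) is a bound. Tcl1 no longer stood apart with the normexp model fitted on all spots, where 6 of 7 were lower on each day. Of the KHDC family, Khdc1a and Khdc1b were not well above background and Khdc1c stood at -0.41 on day 5 and -1.01 on day 7, a call lost with median scaling (-0.96).

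**Figure D4:**
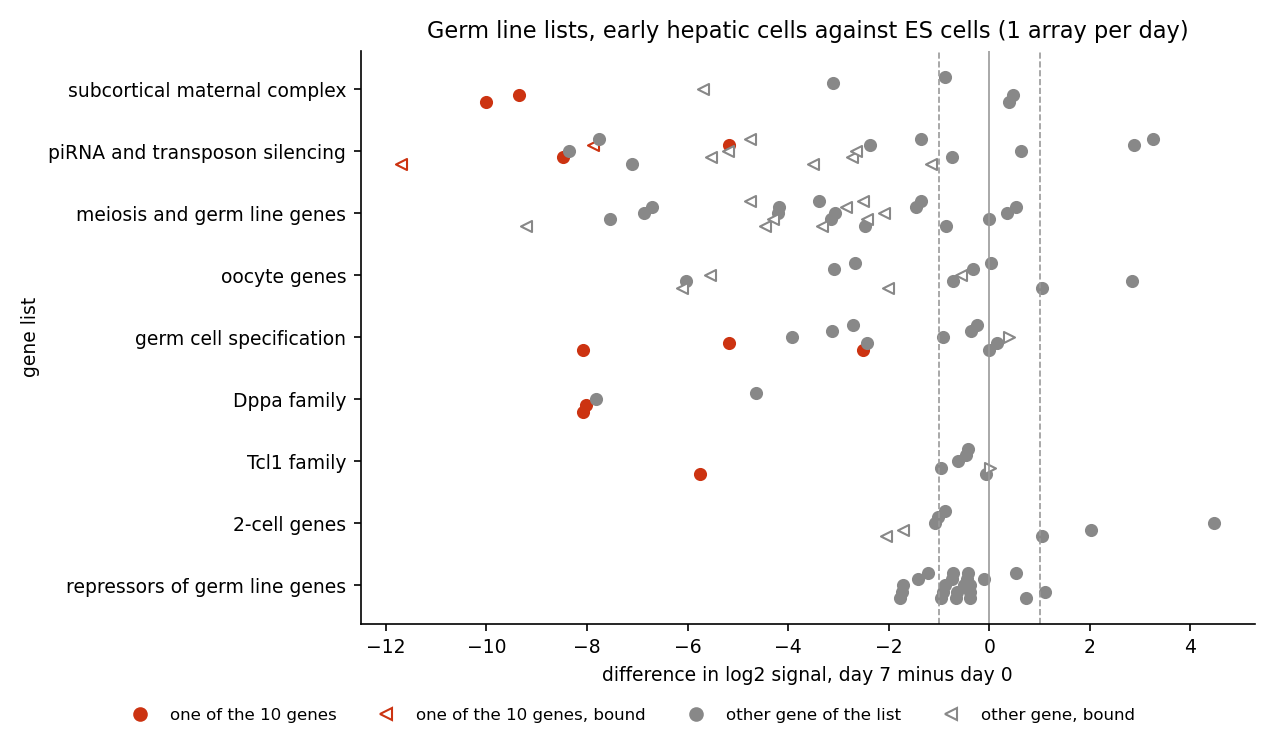
Difference in log2 signal, day 7 minus day 0 (horizontal axis), of each tested gene of 9 lists (vertical axis), with the 10 genes described here in red, bounds as open triangles pointing the way the true value lies, and dashed lines at the 2-fold limits. The meiosis and piRNA lists lie mostly left of the limit.

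Genes that keep germ line promoters closed in somatic cells were looked at as a list of 22. Of these, 5 were lower and 1 higher on each day, where 16.1% of all tested names were lower and 16.4% higher on day 5, and 19.1% and 16.2% on day 7. The median of the list was -0.36 on day 5 and -0.65 on day 7. E2f6 (0.98 and 0.72), Mga (-0.58 and -0.72), Max (-0.33 and -0.39) and Pcgf6 (-0.81 and -0.93) of the variant Polycomb complex did not pass the limit, and L3mbtl2 of the same complex was lower (-1.5 and -1.41). Trim28 (-1.53 and -1.78), Wdr5 (-1.63 and -1.74), Uhrf1 (-1.49 and -1.72) and Dnmt3a (-1.13 and -1.21) were also lower. Dnmt3a lost its call on both days (-0.61 and -0.61) with the median over its probes.

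The de novo methyltransferase Dnmt3b was 4.02-fold higher on day 5 and 2.15-fold higher on day 7. Of the enzymes that oxidise methylated cytosine, Tet1 was 5.97-fold lower on day 5 and 7.5-fold lower on day 7, and Tet2 6.93-fold and 9.64-fold lower. Tet3 was higher on both days (1.64 and 2.55), but its direction turned with the median over its probes (-0.21 and -0.18). DNA methylation itself was not measured.

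The genes that define the ES cell state were lower on the same arrays. Of 15 tested naive pluripotency genes, which include Dppa3 and Tcl1, 13 were lower on each day. Esrrb (-5.83 on day 5 and -10.42 on day 7), Zfp42 (-5.4 and -9.13), Nr5a2 (-5.41 and -7.66) and Fbxo15 (-5.76 and -6.18) had the largest day 7 differences of the list beside Dppa3. Of 12 general pluripotency genes, 10 were lower on each day. The summed signal of the 5 ES cell markers was 160 times the 75th percentile on day 0, 7.0 times on day 5 and 1.9 times on day 7. Zfp42, the brightest of them on day 0 (log2 level of 6.65), made up most of the day 0 sum. One by one, the 5 markers were between 16.5-fold (Nanog) and 1370-fold (Esrrb) lower on day 7. What part the fall of the ES cell genes had in the values of the 10 genes was not tested.

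Markers of germ cells and gonads were also summed. Of primordial germ cell markers, 4 had a probe, all well above background on all 3 arrays. They summed to 9.64 (day 0), 6.16 (day 5) and 1.22 (day 7) in units of the 75th percentile. Most of the day 5 sum came from Prdm1, also a gene of the endoderm (log2 level of 2.17, higher than on day 0 by 3.0). Tfap2c (-2.45) and Dnd1 (-2.53) were lower on day 5, and Nanos3 (-0.59) did not pass the limit. Of the 6 oocyte markers, Zp2 and Bmp15 were not well above background on any array, and the sum was 0.926, 0.144 and 0.201. Most of that sum was Zp3 on day 0 and Gdf9 on the later days, and Gdf9 did not pass the limit (-0.81 and 0.04). The 4 markers of spermatogonia and spermatocytes with a probe summed to 5.8, 1.37 and 0.617, with 3 lower on both days. These sums mostly follow Sycp3 (log2 levels of 2.42, 0.44 and -0.73) and so do not describe the other markers. Among gonadal somatic markers 1 of 5 was lower on both days, Inhbb (-2.03 and -5.74). The part of such cells in the result was not tested.

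For the 8 genes well above background on all 3 arrays, the genes with the most similar pair of differences from day 0 were looked up among 14074 named genes, by the straight-line distance between the pairs in log2 units. Nearest to Ooep were Zfp42 (0.41), Rbmxl2 (0.51) and Dpys (0.54). Nearest to Dppa3 were Dppa4 (0.25), Gdf3 (0.52) and Ly6g6e (0.55), and nearest to Dppa5a were Gdf3 (0.24), Tex19.1 (0.29) and Dppa4 (0.66). Mael lay nearest to Ly6g6e (0.23), Fam25c (0.28) and Triml1 (0.33).

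Khdc3 had no close companion, with Dpys (1.93), Liph (2.21) and Esrrb (2.25) nearest. Tcl1 lay nearest to Pcsk6 (0.03), Mcf2 (0.09) and Arhgap30 (0.12), Ddx4 to Adam23 (0.03), Tmprss13 (0.2) and Patl2 (0.2), and Dazl to Alpl (0.04), Zfp982 (0.04) and Trf (0.08). These likenesses rest on 3 arrays and say nothing of shared function.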

How the data were processed

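RNA of E14.1 cells was measured on 1 one-colour Agilent array per day, and groups follow the labelled cell types. Per the file headers, the authors extracted the arrays with Feature Extraction 10.5.1.1, with probe positions on mm9. The deposited scanner files hold the intensity of each spot, of which the processed, background-corrected signal was used. The authors' deposited table of 41252 rows gives log2 signals made equal in distribution between arrays by a step not given in the sources used here, and it served as an alternative.

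Processed signals were converted to log2 and the 75th percentile over gene spots was subtracted per array. Outlier and control spots were left out (149 flagged gene spots on day 0, 104 on day 5, 131 on day 7), and no gene spot was saturated. Probes were named by RefSeq accession (24836 probes, GRCm38.p6), by symbol (6051) or as in the files (10287). A gene took the probe well above background on most arrays, then the brightest. A dim probe took its own value or, if higher, that of the array's dimmest probe well above background. Comparisons cover the 21653 names whose probe stood above background at least once. The intensity files also gave each spot's software error, mean and local background signal, as deposited.

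The 10 genes and the gene lists were chosen with earlier results of these data known. All 10 genes are named, with up to 4 genes per list and direction by their day 7 difference, and list genes named beside counts of 5 or fewer outside that rule were chosen after their values were seen. The alternatives were 11, computed with Python 3.11.15, numpy 2.4.6, pandas 2.3.3, R 4.3.3 and limma 3.58.1, and 1 of them, the refitted normexp model, was added after the data were seen. Arrays limit the precision by their number, and all 3 lay on 1 slide.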

Additional observations from a re-analysis of the deposited data

Results flagged for a closer look

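Among the genes and markers set beside the 10 genes, Col1a1, a fibroblast collagen, lay below ES cells on day 5 (-1.15, log2) and above them on day 7 (4.61), opposite directions from the same day 0 array, and the difference between the 2 was not tested. Its day 5 call was lost with the median over its probes (-0.64) and with the refitted normexp correction (-1.0). Of the other 3 fibroblast markers, Postn was higher on both days (1.09 and 7.52), Thy1 was lower on both (-2.55 and -3.48), and Vim passed the limit on day 7 (1.6) but not on day 5 (0.84). The day 5 value of Postn was 0.21 with the refitted correction, 0.97 with median scaling and -3.04 with normexp fitted on all spots. Summed over the 4 markers, in units of the 75th percentile, ES cells had 22.3, day 5 cells 36.0 and day 7 cells 69.8. These sums mostly follow Vim, the brightest of the 4 on each array (log2 levels of 4.31, 5.15 and 5.91), and so do not describe the other markers.

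Sox7, a marker of extraembryonic endoderm, likewise stood at -1.07 on day 5 and 2.59 on day 7, and this difference was not tested. Its day 5 call was lost with the median over its probes (-0.59). The other 4 markers of that list were higher on both days, namely Lamb1 (2.51 and 2.92), Col4a1 (3.45 and 4.83), Dab2 (1.86 and 6.8) and Amn (1.61 and 3.28). Summed over the list, in units of the 75th percentile, ES cells had 6.08, day 5 cells 34.5 and day 7 cells 99.6. The part of either list in the values of the 10 genes was not tested.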

How the results depend on the processing

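Under all 11 alternatives, every one of the 10 genes that could be tested stayed lower on day 5 and on day 7 than in ES cells, with 0 higher (8 genes where probes had to be above background on all arrays). Between day 7 and day 5 the count of 8 lower was 5 with the refitted normexp correction, 5 at a 4-fold limit and 1 with normexp fitted on all spots, and the 0 higher became 2 with the last and 1 (Dazl) with the median over probes. With normexp fitted on all spots Khdc3 (1.12) and Dazl (2.02) were the 2 called higher. Mael (0.49), Ddx4 (0.57) and Tcl1 (0.51) changed sign without passing the limit, and Tcl1 had no call in the main setting either (-0.77). That fit included 5, 3 and 2 spots on the day 0, 5 and 7 arrays whose local background exceeded their signal by over 20 units. Its background mean was -1242.3, -12.7 and -344.5 units, against 0.4, -10.7 and -0.4 after refitting without them. Leaving these spots out thus moved the fit greatly on day 0 and day 7 and little on day 5. The fit on all spots also called 9566 names lower and 1748 higher on day 5, 8547 and 1583 on day 7, and 441 and 6275 on day 7 against day 5. Main counts were 3484 and 3561, 4137 and 3504, and 1815 and 1292. A 4-fold limit gave 1232 and 1506, 1519 and 1570, and 557 and 484. The refitted correction gave 2686 and 2481, 3141 and 2527, and 1036 and 857. Median scaling gave 1479 lower and 1565 higher on day 7 against day 5, and its median shift there was 0.06. The authors' value table gave 1556 and 1429, and quantile normalization 1561 and 1426.

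With the refitted normexp correction the day 7 difference from ES cells was -8.14 for Khdc3, -6.43 for Mael, -5.64 for Gtsf1, -9.27 for Morc1 and -1.45 for Dazl, against -10.01, -8.48, -7.89, -11.69 (a bound) and -2.52 in the main setting. Both normexp settings added 50 units to every corrected signal. The processed day 7 readings of Khdc3 (24.6), Mael (20.9), Morc1 (15.1) and Gtsf1 (10.0) lay below that constant. A constant of this size draws dim readings together, and its part in these differences was not tested. The median over probes put Morc1 at -5.9. No paired analysis was possible because there is 1 array per day, and for the same reason no array could be left out.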

Other observations

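Genes of the 2-cell embryo, another set linked to ES cell cultures, did not share one course. Of 8 tested, 1 was lower and 2 higher on day 5, and 4 were lower and 3 higher on day 7, against ES cells. The 4 lower on day 7 became 2 with quantile normalization or the authors' deposited table and 1 with the refitted normexp correction, where Eif1a and Zfp352 were among those that no longer passed. Tcstv3 was 162-fold higher on day 5 and 22.2-fold higher on day 7, and Tcstv1 was 33.7-fold and 4.06-fold higher. Tdpoz1, also higher on day 7 (1.04), lost its call with the refitted correction (0.2) and the median over its probes (0.4). With normexp fitted on all spots the day 7 values of Tcstv3, Tcstv1 and Tdpoz1 were -0.23, -0.6 and -1.43. Zscan4c, the usual marker of the 2-cell-like state, stood at 0.31 on day 5 and -0.89 on day 7, with 1 of 3 Zscan4 genes of the list having a probe.

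Genes next to the 10 on the chromosome, 2 protein-coding genes to each side in RefSeq order, were looked up after the data were seen. Of 36 such genes, 28 could be tested, of which 11 were lower and 7 higher on day 5, and 11 lower and 7 higher on day 7. Over all tested names, 16.1% were lower and 16.4% higher on day 5, and 19.1% and 16.2% on day 7. Dppa3 sits between Gdf3 (-4.21 on day 5 and -8.23 on day 7) and Nanog (-2.63 and -4.04), both ES cell genes, with Apobec1 (-3.73 and -4.85) also lower and Slc2a3 (1.15 and 1.58) higher. Morc1 lies beside Dppa2 and Dppa4, and Mael beside Gpa33 (-5.52 and -7.05) and Dusp27 (-3.94 and -5.53). Of the 4 genes around Dazl, Kif6 did not pass the limit (-0.04 on day 5) and the other 3 were higher while Dazl was lower, with Rftn1 (4.53 and 4.09), Plcl2 (3.09 and 2.81) and Tbc1d5 (1.89 and 1.35) higher on both days. The genes beside Tcl1 on one side, Tcl1b3 (-0.24 and -0.46) and Tcl1b4 (-0.35 and -0.42), did not pass the limit.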
